A study of Homo sapiens with 8 samples.

Results

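The genes described here are the transcriptional output of the Hippo pathway: the coactivators YAP1 and WWTR1 (the gene of TAZ), the DNA-binding factors TEAD1 and TEAD4, and the target genes CCN1, CCN2, ANKRD1, AMOTL2, AJUBA and LATS2. They were given as a list of symbols, drawn up with earlier results of these data known. All 10 symbols mapped to a gene identifier among the 64253 genes counted, and all 10 were among the 20305 genes that passed the filter on low counts. RNA-seq was run on 8 libraries, in 4 groups with 2 replicates each. HCT-8 is an established human cell line from a colon carcinoma and responds to the antimetabolite 5-FU, and HCT-8/FU is its resistant counterpart. Both lines were sequenced without conditioned medium, and the labels name no 5-FU in it. The remaining groups were HCT-8 cells in conditioned medium (CM) collected over 48 h. In CM of HCT-8, the control CM, it came from HCT-8 cells. The resistant-line CM (CM of HCT-8/FU) came from the resistant cells. All groups grew in medium with serum and antibiotics. Resistance is represented by 1 line, so it cannot be told apart from other differences between these cultures.

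In the Hippo pathway, the kinases STK3 and STK4 activate LATS1 and LATS2, which phosphorylate YAP and TAZ and keep them out of the nucleus. Unphosphorylated YAP and TAZ enter the nucleus and bind TEAD factors, which recognise the DNA word GGAATG. Several targets feed back on the pathway, among them LATS2, AMOTL2 and AJUBA. In the intestine the pathway is known for its part in regeneration and in tumour growth. Transcript levels do not show the phosphorylation or the location of YAP and TAZ, which were not measured in these libraries.

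In build GRCh38, the coactivator genes lie at separate loci, YAP1 (ENSG00000137693) at chr11:102110447-102233424 (plus strand) and WWTR1 (ENSG00000018408) at chr3:149517235-149736714 (minus strand). The TEAD genes are TEAD1 (ENSG00000187079) at chr11:12674421-12944737 (plus strand) and TEAD4 (ENSG00000197905) at chr12:2959330-3040676 (plus strand). The secreted targets are CCN1 (ENSG00000142871) at chr1:85580761-85584589 (plus strand) and CCN2 (ENSG00000118523) at chr6:131948176-131951372 (minus strand), and the nuclear target is ANKRD1 (ENSG00000148677) at chr10:90912096-90921087 (minus strand). The targets that act on the pathway itself are AMOTL2 (ENSG00000114019) at chr3:134355347-134375479 (minus strand), AJUBA (ENSG00000129474) at chr14:22971177-22982551 (minus strand) and LATS2 (ENSG00000150457) at chr13:20973036-21061586 (minus strand). Values below are sums over all exons of these genes.

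The TEAD word is shown in the promoters of the members that carried it, because the levels reported next are those of TEAD and of genes with such promoters. In RefSeq windows of build GRCh38.p14, each from 250 bases before to 50 bases after a start, GGAATG or its reverse complement CATTCC was searched on both strands, and 4928 of 35116 windows (14.0%) held it. An entry was found for 7 members, and CCN1, TEAD1 and TEAD4 had none. The word was in 6 of these members, or 6 of their 10 windows, and in WWTR1 neither window held it. Of 41 other Hippo pathway genes with an entry, 9 held the word. In LATS2 it lay after the start. The capitals mark the word or its reverse complement, read 5′ to 3′ on the strand of the gene. CCN2 has 3 copies, starting 169, 104 and 95 bases before the start at chr6:131951373-131951622 (minus strand), and ANKRD1 has 2, starting 220 and 128 bases before the start at chr10:90921088-90921337 (minus strand). YAP1 is shown at chr11:102110275-102110300 (plus strand), AMOTL2 at chr3:134374501-134374526 (minus strand) and AJUBA at chr14:22976886-22976911 (minus strand), with the word starting 162, 69 and 59 bases before the start. For AMOTL2 and AJUBA this is another start inside the gene.
CCN2: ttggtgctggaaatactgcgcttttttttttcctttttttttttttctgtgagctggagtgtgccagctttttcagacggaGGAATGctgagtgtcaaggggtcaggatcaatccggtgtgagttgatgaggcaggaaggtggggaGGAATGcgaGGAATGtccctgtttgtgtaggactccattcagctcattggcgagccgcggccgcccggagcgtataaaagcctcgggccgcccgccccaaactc
ANKRD1: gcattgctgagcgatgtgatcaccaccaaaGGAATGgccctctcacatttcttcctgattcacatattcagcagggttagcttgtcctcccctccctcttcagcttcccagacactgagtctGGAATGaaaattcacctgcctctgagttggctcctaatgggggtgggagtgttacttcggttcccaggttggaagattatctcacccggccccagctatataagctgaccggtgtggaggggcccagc
YAP1: ggagtgtgcaGGAATGtagcaacttg
AMOTL2: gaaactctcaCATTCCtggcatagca
AJUBA: gaagttggctGGAATGaagccaaagc
A match is a description of the letters and does not show binding.

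Counts on genes came to between 5804124 and 34881349 per library. In HCT-8 replicate 1, HCT-8/FU replicate 2 and control CM replicate 1, between 20.0% and 29.6% of the records were not aligned, against 3.58% to 4.43% elsewhere. Markers of colon epithelium were above 1 CPM in every library for 9 of 9 genes, with summed levels of 9475 to 11830 CPM. The markers of other cell types were low, and 7 fibroblast markers summed to 12.5 to 22.4 CPM with COL1A2 at 0. Of these, COL1A1 (8.19 to 13.8 CPM) and PDGFRB (4.35 to 9.04 CPM) were above 1 CPM in every library. The 4 endothelium markers summed to at most 2.45 CPM. A gene was called differentially expressed (DE) with a false discovery rate (FDR) up to 0.05 and a log2 fold change of 0.58 or more in size. Adjusted p-values are those of edgeR's quasi-likelihood test over all 20305 genes. The labels do not say whether replicates were separate cultures, so p-values measure only the spread between these samples. Fewer cells making a transcript and less of it in each cell cannot be told apart in bulk RNA.

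Every member was expressed in every library, with between 109 counts (ANKRD1 in HCT-8/FU replicate 2) and 10012 counts (TEAD1 in HCT-8/FU replicate 1). On the scale that allows genes to be compared, TMM-normalized CPM, a count scaled by library size, per kb of exon averaged over the 8 libraries, YAP1 had the highest level of the members, 45.2, and WWTR1 the lowest, 4.56. CCN1, a secreted matrix protein, stood at 38.1, followed by the angiomotin AMOTL2 at 23.9 and by the secreted CCN2 at 23.8. TEAD1 had 19.7, the LIM protein AJUBA 18.7 and TEAD4 16.2. The kinase LATS2 had 13.7, and the ankyrin repeat protein ANKRD1 11.3.

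**Figure D1:**
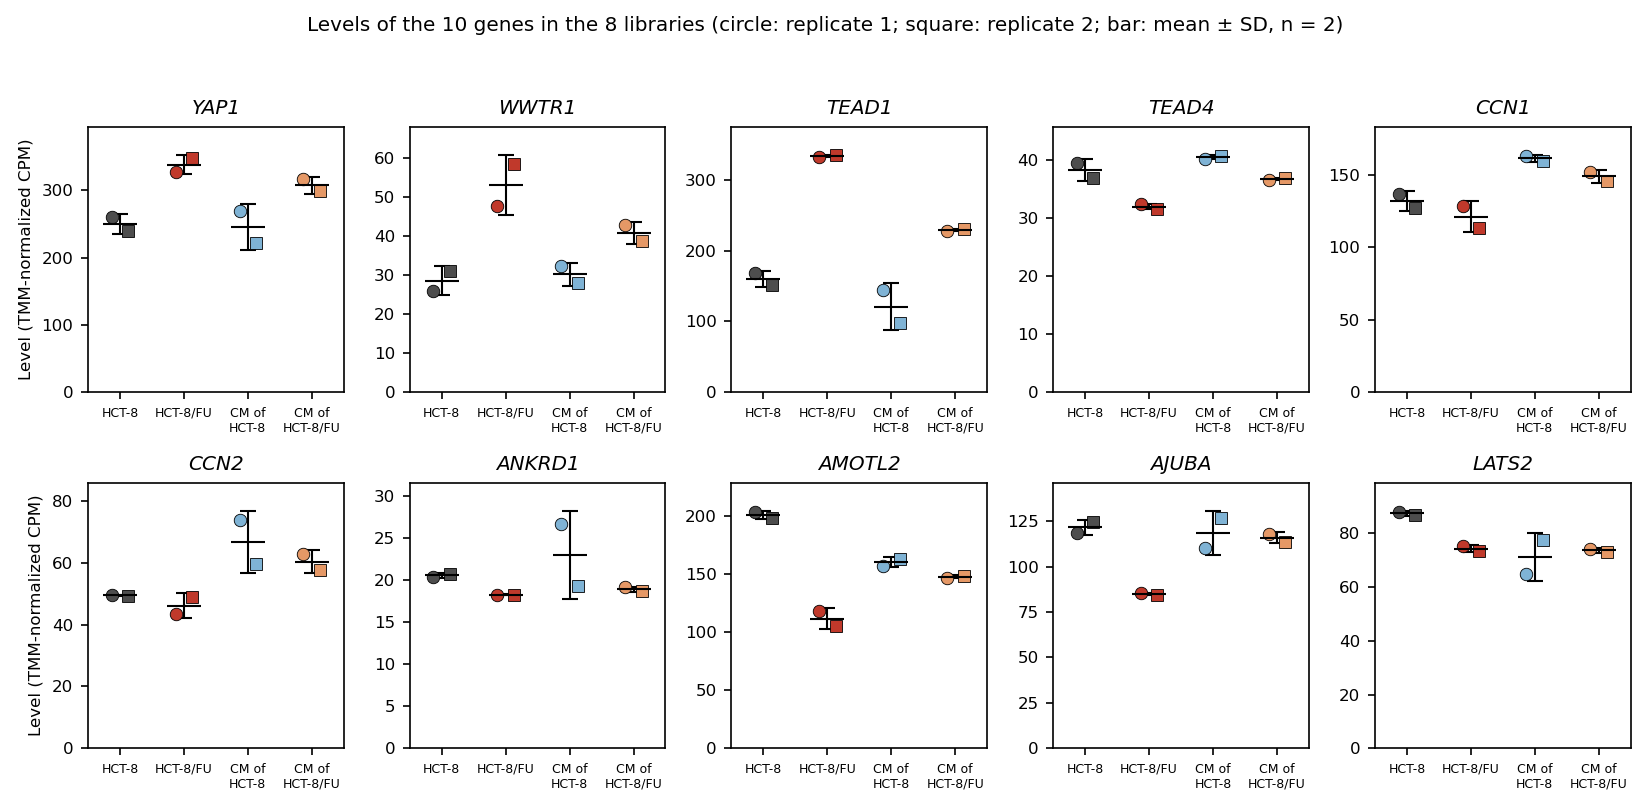
Level of each member in CPM (vertical axis) in each library of the 4 groups (horizontal axis), with circles for replicate 1, squares for replicate 2, and bars for the mean and SD of 2 replicates. TEAD1, WWTR1 and YAP1 are highest in HCT-8/FU, AMOTL2 and AJUBA are lowest there, and CCN1 and CCN2 are highest in both CM groups.

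The first comparison asked how the pathway's output genes differed between resistant and sensitive cells. TEAD1, WWTR1 and YAP1 rose in HCT-8/FU, and AMOTL2 and AJUBA fell. CCN1 and CCN2, the targets most often read as a measure of YAP activity, did not pass the test, and neither did ANKRD1, LATS2 and TEAD4. Of the 10 members, 3 were DE, of which 2 were higher and 1 lower, where 21.3% of all tested genes were DE. The FDR alone was passed by 5 members, against 36.7% of all tested genes, with 3 higher (18.6%) and 2 lower (18.1%). Both shares are near the background, so the number of changed members is not a result about this group of genes. Libraries of the groups did not overlap for 9 members, against 65.0% of tested genes.

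TEAD1, a main partner of YAP in epithelial cells, had 168.5 and 151.7 CPM in the HCT-8 libraries and 332.7 and 335.1 CPM in those of HCT-8/FU. The HCT-8/FU libraries lay far above those of HCT-8, without overlap. The log2 fold change was 1.07 (SE 0.13, adjusted p = 9.8e-06), the largest rise among the members. WWTR1 had 25.9 and 31.1 CPM in HCT-8 and 47.7 and 58.5 CPM in HCT-8/FU. It rose by a log2 fold change of 0.84 (SE 0.13, adjusted p = 8.9e-05), again without overlap. YAP1 rose less, from 260.9 and 239.2 CPM to 328.0 and 348.5 CPM, a log2 fold change of 0.44 (SE 0.090, adjusted p = 0.0013) that is under the fold threshold. Of the exonic bases of YAP1 and WWTR1, 10.1% and 9.05% lie opposite exons of another gene, and whether the counting used strand was not given in the sources used.

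Among the targets, AMOTL2, which holds YAP at cell junctions, had 202.7 and 198.1 CPM in HCT-8 and 117.7 and 105.1 CPM in HCT-8/FU. Its log2 fold change was −0.84 (SE 0.077, adjusted p = 8.5e-07), with both HCT-8/FU libraries below all the other 6. AJUBA, which restrains LATS kinases, went from 118.6 and 124.4 CPM to 85.4 and 84.4 CPM, a log2 fold change of −0.52 (SE 0.085, adjusted p = 0.00018). The HCT-8/FU libraries were again the lowest of the 8. CCN1 had 136.8 and 127.1 CPM in HCT-8 and 128.7 and 113.7 CPM in HCT-8/FU, and here the groups overlapped. The log2 fold change of CCN1 was −0.11 with a 95% interval of −0.28 to 0.065 (adjusted p = 0.34), which leaves room for a small change in either direction. For CCN2, with 49.6 and 49.3 CPM against 43.3 and 49.0 CPM, it was −0.12 with an interval of −0.36 to 0.12 (adjusted p = 0.47). ANKRD1, with 20.4 and 20.8 CPM against 18.3 and 18.2 CPM, had −0.17 with an interval of −0.49 to 0.14 (adjusted p = 0.41). LATS2 (−0.23, SE 0.092) and TEAD4 (−0.24, SE 0.098) each had an adjusted p of 0.065. Without control CM replicate 1 or replicate 2, which serve here only for the shared estimate of spread, both passed (adjusted p between 0.012 and 0.049).

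Between the lines, most members with low GC content had values above 0, and those with higher GC content had values below 0. GC content ran from 42.1% for ANKRD1, 42.6% for WWTR1, 42.9% for TEAD1 and 43.3% for YAP1 to 63.3% for TEAD4. Of the 4 members with under 45% GC, 3 had a log2 fold change above 0, while all 6 members with over 45% were below 0 (−0.84 to −0.11). With each library corrected for GC content and length, TEAD1 (0.75, adjusted p = 0.0010) and AMOTL2 (−0.65, adjusted p = 9.0e-05) were still DE, where 15.3% of all tested genes were. WWTR1 (0.53, adjusted p = 0.0090) and AJUBA (−0.41, adjusted p = 0.0032) passed the FDR only, as did ANKRD1 (−0.51, adjusted p = 0.026), which had not passed it without the correction. YAP1 no longer passed (0.21, adjusted p = 0.17). It also did not pass without HCT-8 replicate 2 (0.34, adjusted p = 0.068). Between the media, 3 of the 4 members with under 45% GC and 1 of the 6 with over 45% were above 0. Between control CM and HCT-8 there was no such split, with 2 of the 4 and 3 of the 6 above 0. The correction removes any change that follows GC content, whatever its origin, and the part of base composition in these values was not tested.

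**Figure D2:**
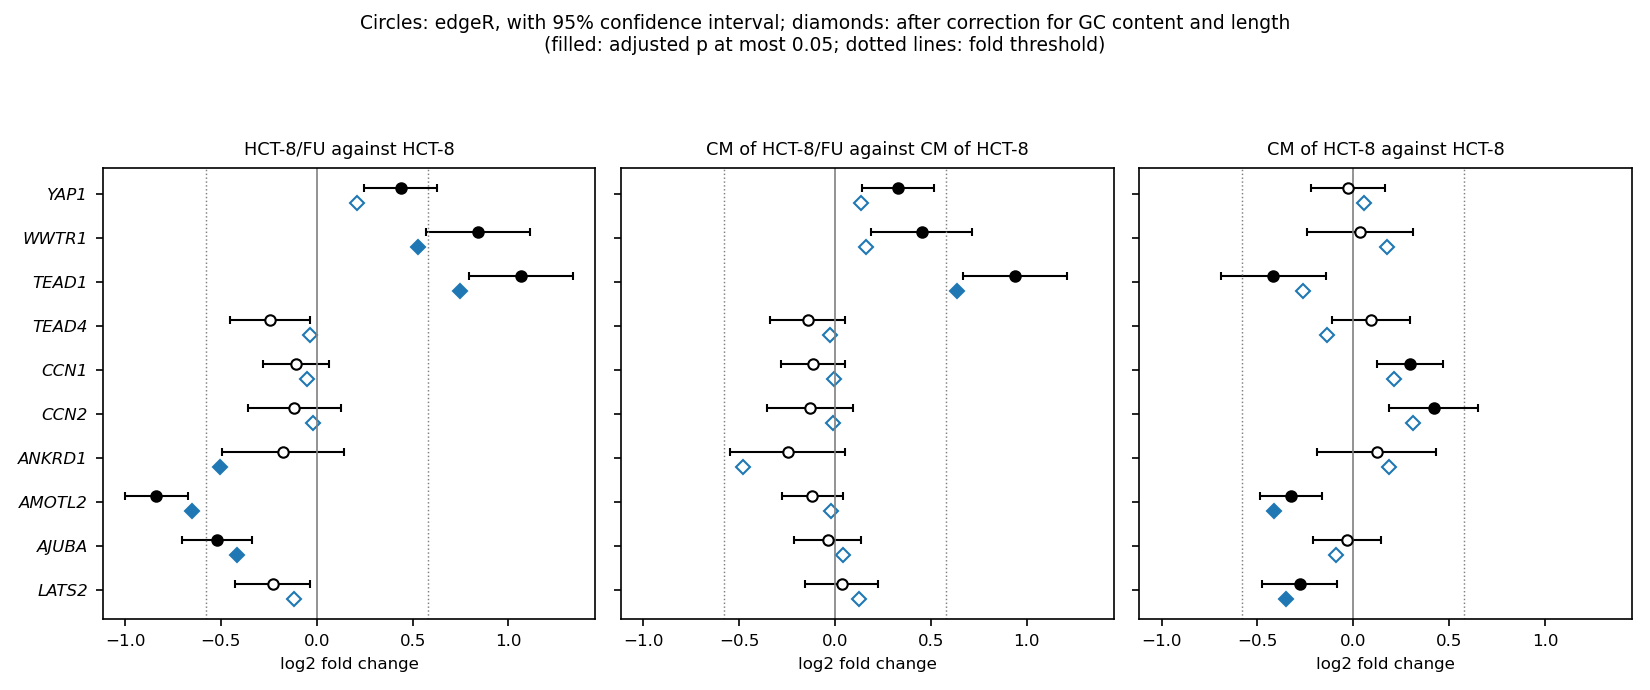
Log2 fold change (horizontal axis) of each member (vertical axis) in 3 comparisons, as circles with 95% confidence intervals from edgeR and as diamonds after correction for GC content and length; filled symbols have an adjusted p of at most 0.05, and dotted lines mark the fold threshold of 0.58. TEAD1 is past the threshold in the first and second panels with either symbol, and AMOTL2 in the first only.

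The second comparison asked whether medium from resistant cells moved these genes in HCT-8 cells, with medium from HCT-8 cells as the control. TEAD1, WWTR1 and YAP1 rose in resistant-line CM, and none of the 6 targets passed the test. TEAD1 was the single DE member of 10, where 9.25% of tested genes were DE. With the FDR alone there were 3 of 10, against 19.7% of tested genes, all of them higher (11.2%). Groups did not overlap for 7 members, against 61.4% of tested genes.

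TEAD1 had 144.8 and 97.5 CPM in control CM, which was the widest spread between replicates among its 4 groups, and 228.2 and 230.5 CPM in resistant-line CM. It rose by a log2 fold change of 0.94 (SE 0.13, adjusted p = 8.2e-05), and by 0.63 (adjusted p = 0.0096) with the correction for GC content and length. WWTR1 rose from 32.2 and 28.0 CPM to 42.7 and 38.8 CPM, by 0.45 (SE 0.12, adjusted p = 0.017). YAP1 rose from 269.7 and 221.9 CPM to 316.8 and 298.4 CPM, by 0.33 (SE 0.089, adjusted p = 0.017). Neither passed with the correction (WWTR1 0.16, adjusted p = 0.52; YAP1 0.14, adjusted p = 0.49). Without control CM replicate 2 the values were 0.34 (adjusted p = 0.11) and 0.19 (adjusted p = 0.094), and without resistant-line CM replicate 1 they were 0.38 (adjusted p = 0.17) and 0.29 (adjusted p = 0.16). YAP1 also missed the threshold without resistant-line CM replicate 2 (0.37, adjusted p = 0.052).

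Of the targets in this comparison, AMOTL2 had 156.6 and 162.9 CPM in control CM and 146.6 and 148.2 CPM in resistant-line CM. Its log2 fold change was −0.12 with an interval of −0.28 to 0.042 (adjusted p = 0.31). AJUBA (−0.039), CCN1 (−0.11), CCN2 (−0.13), ANKRD1 (−0.25), TEAD4 (−0.14) and LATS2 (0.035) had adjusted p-values between 0.25 and 0.84. The widest of their intervals was that of ANKRD1, from −0.55 to 0.053. Without control CM replicate 2, in which ANKRD1 had 19.3 CPM against 26.7 CPM in replicate 1, its value was −0.49 (adjusted p = 0.022).

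A further comparison, between control CM and HCT-8, sets HCT-8 cells with the control medium against those without. It shares its HCT-8 libraries with the first comparison and its control CM libraries with the second, so its values are not independent of theirs. CCN1 and CCN2 rose in this medium, while TEAD1, AMOTL2 and LATS2 fell. None of the 10 members was DE, where 8.15% of tested genes were (4.29% as lower), and DESeq2 called 0 as well. An unadjusted p under 0.05 was reached by 5 members, for which no share of all tested genes is given here. The FDR was passed by 5 members as well, against 19.4% of tested genes. Of these 2 were higher (9.04%) and 3 lower (10.4%). Groups did not overlap for 6 members, against 54.3% of tested genes. Of the 9 epithelium markers, 6 passed the FDR as higher in the same comparison, against 9.04% of tested genes, and none as lower. Their summed levels were 10910 to 11830 CPM in control CM against 9785 to 9867 CPM in HCT-8. Between the lines 4 of these markers passed as higher (18.6% of tested genes) and 3 as lower (18.1%). Between the media 5 passed as lower and none as higher, against 19.7% of tested genes in either direction. With the correction for GC content and length, 4 passed as higher and none as lower between control CM and HCT-8. The corrected counts were 5 higher and 2 lower between the lines, and 0 in either direction between the media. The part of these markers in the members' values was not tested in any of the comparisons.

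CCN2 rose from 49.6 and 49.3 CPM to 73.8 and 59.7 CPM, by a log2 fold change of 0.42 (SE 0.11, adjusted p = 0.014). CCN1 rose from 136.8 and 127.1 CPM to 163.2 and 159.9 CPM, by 0.30 (SE 0.080, adjusted p = 0.018). Both lay above HCT-8 in each library, and neither passed with the correction for GC content and length (0.31, adjusted p = 0.15, and 0.21, adjusted p = 0.17). AMOTL2 had −0.32 (SE 0.076, adjusted p = 0.0071) and LATS2 −0.28 (SE 0.091, adjusted p = 0.043), and both passed with the correction (−0.42 and −0.35). TEAD1 fell by 0.42 on the log2 scale (SE 0.13, adjusted p = 0.034), but its value rested on 1 library. With the correction it was −0.27 (adjusted p = 0.25). It was −0.71 without control CM replicate 1 and −0.14 (adjusted p = 0.29) without control CM replicate 2. The call of LATS2 held in leaving out control CM replicate 2 and was lost without any other library. That of TEAD1 held without control CM replicate 1 or without either library of resistant-line CM, and was lost without each of the other 5. Leaving out HCT-8 replicate 1 also ended the calls of CCN2 (adjusted p = 0.068) and AMOTL2 (adjusted p = 0.054), and leaving out HCT-8 replicate 2 those of CCN1 (adjusted p = 0.38) and CCN2 (adjusted p = 0.20). Without control CM replicate 1 that of CCN2 ended (0.27, adjusted p = 0.060). DESeq2 called neither TEAD1 (adjusted p = 0.13) nor CCN1 (adjusted p = 0.057).

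Whether the change between the lines differed from the change between both media was tested directly. The difference passed the FDR for 2 members, AMOTL2 and AJUBA, against 11.6% of tested genes. The log2 fold change between the lines minus that between the media was −0.72 for AMOTL2 (SE 0.11, adjusted p = 0.00048) and −0.48 for AJUBA (SE 0.12, adjusted p = 0.015). AMOTL2 was also lower in control CM than in HCT-8, so the control groups of both changes differed. For TEAD1 the difference was 0.12 (SE 0.18, adjusted p = 0.74), with an interval of −0.26 to 0.51. For WWTR1 it was 0.39 (SE 0.18, adjusted p = 0.19), and for the other 6 members it lay between −0.26 and 0.11. The call of AJUBA ended without resistant-line CM replicate 1 (−0.47, adjusted p = 0.088) or replicate 2 (−0.52, adjusted p = 0.053). Without control CM replicate 2, TEAD1 (0.39, adjusted p = 0.010) and LATS2 (−0.42, adjusted p = 0.018) passed too.

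**Figure D3:**
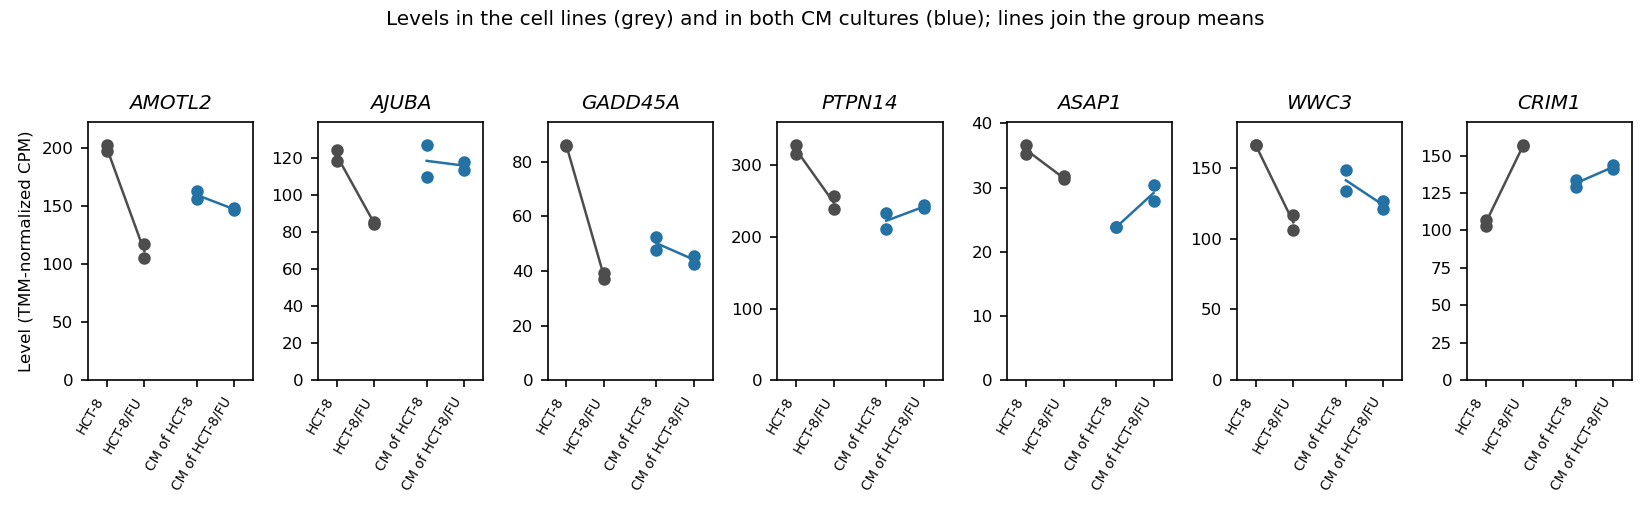
Level in CPM (vertical axis) of AMOTL2, AJUBA and the 5 listed pathway genes whose change differed between the comparisons, in the 2 libraries (points) of each group (horizontal axis), with lines joining group means. AMOTL2, AJUBA and GADD45A fall between the grey points of HCT-8 and HCT-8/FU, and the blue points of both media lie close together.

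Over the 4 groups, the order of levels of TEAD1 was control CM, HCT-8, resistant-line CM and HCT-8/FU from low to high, and each neighbouring pair differed (adjusted p = 0.034, 0.0065 and 0.011). With group means of 121.1 ± 33.5, 160.1 ± 11.9, 229.3 ± 1.63 and 333.9 ± 1.70 CPM (SD, n = 2), it was the single member for which all 3 steps passed, but none of them passed with the correction for GC content and length (adjusted p = 0.25, 0.070 and 0.32). AMOTL2 was lowest in HCT-8/FU, followed by resistant-line CM, control CM and HCT-8. Its first step (0.39, adjusted p = 0.0046) and its last (0.32, adjusted p = 0.0071) passed, and the middle one (0.12, adjusted p = 0.31) did not. Like TEAD1, it was lower in control CM than in HCT-8. In YAP1 and WWTR1 the groups HCT-8/FU and resistant-line CM were above HCT-8 and control CM, and in each gene the middle step passed and the outer ones did not. AJUBA was lower in HCT-8/FU than in its neighbour resistant-line CM (0.45, adjusted p = 0.0038), and its other 3 groups did not separate. No neighbouring pair passed for CCN1, CCN2, ANKRD1, LATS2 or TEAD4. In CCN1 and CCN2 the order was HCT-8/FU, HCT-8, resistant-line CM and control CM, and HCT-8/FU was below resistant-line CM by 0.29 (adjusted p = 0.028) and 0.40 (adjusted p = 0.025), though neither passed with the correction (adjusted p = 0.33 and 0.41). Among all tested genes, 24.7% differed between resistant-line CM and HCT-8, and 12.7% between resistant-line CM and HCT-8/FU. In all, 8 of the 30 steps passed, and with the correction 1 did, that of AMOTL2 from control CM to HCT-8.

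The make-up of the TEAD family moved with TEAD1. Of the summed level of TEAD1, TEAD2, TEAD3 and TEAD4 per kb of exon, TEAD1 made up 29.0% and 25.9% in HCT-8 and 48.1% and 45.4% in HCT-8/FU. It made up 23.7% and 17.6% in control CM and 35.4% and 36.1% in resistant-line CM. As shares of 1 sum, those of the other TEADs together must fall when that of TEAD1 rises. TEAD4 had 32.0% and 29.6% in HCT-8 against 22.0% and 20.1% in HCT-8/FU, although its own level did not pass the test. TEAD2 (19.1% and 21.0% against 15.5% and 17.5%) and TEAD3 (19.9% and 23.6% against 14.4% and 17.0%) fell too. The ratio of TEAD1 to TEAD4 counts does not depend on the scaling of a library. It was 4.27 and 4.12 in HCT-8, 10.3 and 10.6 in the resistant line, 3.60 and 2.39 in control CM, and 6.24 and 6.27 in resistant-line CM. TEAD1 and TEAD4 lie far apart in GC content, and its part in the ratio was not tested. The shares and the ratio are given without the correction for GC content and length. With it, the log2 fold change between the lines went from 1.07 to 0.75 for TEAD1. For TEAD4 it went from −0.24 to −0.035 (edgeR, adjusted p = 0.87). TEAD2 (−0.03, adjusted p = 0.89) and TEAD3 (−0.23, adjusted p = 0.17) did not pass in the comparison of the lines, and this reading of the family was chosen after its values were seen. With 2 libraries against 2, an exact two-sided permutation test cannot go below 0.333, so no test of the shares was run.

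**Figure D4:**
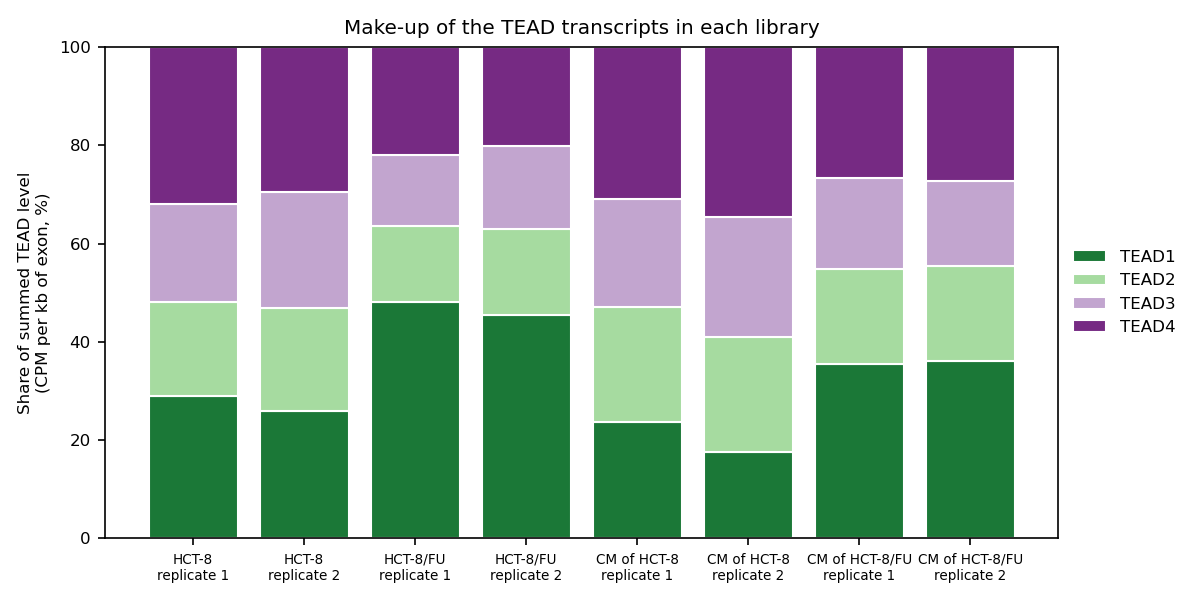
Share of TEAD1, TEAD2, TEAD3 and TEAD4 (stacked bars, in % of their summed CPM per kb of exon, vertical axis) in each library (horizontal axis). TEAD1 is the largest share in HCT-8/FU and in resistant-line CM and TEAD4 in the other groups.

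The genes whose pattern over the 8 libraries was most like that of YAP1 were ITGA6, ITGB1 and CAST, among 10872 protein-coding genes that averaged 5 CPM or more. Their log2 levels, centred on each gene's mean, differed from those of YAP1 by a root mean square of 0.050, 0.053 and 0.053. ITGA6 and ITGB1 encode integrin subunits, and CAST the calpain inhibitor calpastatin. For CCN1 they were ANKRD54, RAB11FIP3 and ITGB4, at 0.040, 0.046 and 0.058. ITGB4, another integrin subunit, had group means of 470.2 CPM in HCT-8, 414.5 in the resistant line, 584.8 in control CM and 523.4 in resistant-line CM. It was picked for its likeness to CCN1 over these same libraries, so sharing the order of CCN1 follows from that choice.

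To set the members in their pathway, 52 other Hippo genes were read from 4 lists, and 47 of them were tested. Not tested were AMOT, FAT4, VGLL1, FOXF2 and RBMS3, which had at most 12 counts in any library. FAT4, VGLL1 and FOXF2 had 0 counts in all 8 libraries, which allows up to 0.086 to 0.517 CPM, the 3 counts that a count of 0 allows (counting error only). Between the lines, 12 of the 47 were DE, with 11 higher and 1 lower, against 13.2% higher and 8.12% lower among all tested genes. Once corrected for GC content and length the split was 3 higher and 3 lower, against 7.28% and 8.06%. In resistant-line CM against control CM, 9 were DE and all higher (5 without control CM replicate 2), against 7.97% higher among all tested genes, and with the correction 2 were higher and 1 lower, against 4.8% in either direction. In control CM against HCT-8, 3 were DE and all lower (8 without HCT-8 replicate 2, and 1 with the correction, where 5.48% of all tested genes were DE).

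Of the 12 kinase core genes, 6 were DE and higher in HCT-8/FU and none lower, against 13.2% and 8.12% of all tested genes. Without the correction, the median log2 fold change of the list was 0.54, against 0.0082 over all tested genes. With it the list median was 0.16, and no corrected median over all tested genes is given here. MOB1B rose by 1.45 (SE 0.13) and MOB1A by 1.15 (SE 0.12), both adaptors that activate LATS kinases. TAOK1, a kinase upstream of STK3 and STK4, rose by 1.37 (SE 0.12), and LATS1 by 0.86 (SE 0.13). All of these 4 had adjusted p-values of 6.7e-05 or lower. With the correction MOB1B (0.70) and TAOK1 (0.87) were still DE, while MOB1A had 0.56 (adjusted p = 0.0024) and LATS1 0.32 (adjusted p = 0.070). The correction also brought out lower values, named after they were seen. STK4 was DE and lower in HCT-8/FU (−0.80, adjusted p = 5.4e-05, against −0.27 and 0.027 uncorrected), and the scaffold SAV1 passed the FDR as lower (−0.57, adjusted p = 0.0018, against −0.01 and 0.96). In resistant-line CM against control CM, where 7.97% of all tested genes were DE and higher, 5 of the 12 were. These included MOB1B (1.495, SE 0.13), TAOK1 (1.29, SE 0.12), MAP4K3 (0.82, SE 0.13) and LATS1 (0.69, SE 0.13), and the correction again left MOB1B (0.72) and TAOK1 (0.77) DE. There too SAV1 was DE and lower once corrected (−0.67, adjusted p = 0.0018), and STK4 passed the FDR as lower (−0.53, adjusted p = 0.0041). In control CM against HCT-8, MOB1B fell by 0.72 on the log2 scale (adjusted p = 0.0023), and had −0.35 (adjusted p = 0.14) with the correction.

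For the 16 tested upstream adaptors and junction proteins, the median between the lines was 0.26, against 0.0082 over all tested genes. In HCT-8/FU, where 13.2% of all tested genes were DE and higher, 3 of this list were. They were PALS1 (0.94, SE 0.098) of the Crumbs polarity complex, the tight junction protein TJP1 (0.62, SE 0.094) and WWC2 (0.61, SE 0.10), which activates LATS kinases. In resistant-line CM the list median was −0.065, against −0.059 over all tested genes. PALS1 (0.67), TJP1 (0.64) and WWC2 (0.76) were also DE and higher there, where 7.97% of all tested genes were. None of these 6 values was DE with the correction. Among the other TEADs and TEAD cofactors, VGLL3, a cofactor that binds TEAD in place of YAP, rose from a mean of 1.06 to 4.90 CPM between the lines (1.99, SE 0.38, adjusted p = 0.00064). In resistant-line CM it rose by 1.92 (SE 0.40, adjusted p = 0.0029) but from 0.799 CPM only, and it was not DE there with the correction.

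The wider set of YAP/TAZ targets had 15 tested genes and a median of 0.043 between the lines, against 0.0082 over all tested genes. GADD45A, a stress and DNA damage gene, fell from 85.8 and 86.0 CPM to 39.3 and 36.9 CPM, a log2 fold change of −1.16 (SE 0.094, adjusted p = 2.5e-07). CRIM1, a membrane protein, rose by 0.58 (SE 0.073, adjusted p = 1.6e-05), at the fold threshold, and by 0.55 with the correction. The other 13 were not DE, although 6 of them passed the FDR. In the whole list 4 passed it as higher and 4 as lower, against 18.6% and 18.1% of all tested genes. With the correction 2 passed it as higher and 5 as lower. Of the list, 0 were then DE as higher and 2 as lower, against 7.28% and 8.06% of all tested genes. No gene of this list was DE in resistant-line CM against control CM. In control CM, GADD45A (−0.79, SE 0.091) and ASAP1 (−0.59, SE 0.10) were lower than in HCT-8, and with the correction only GADD45A (−0.95) was DE.

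**Figure D5:**
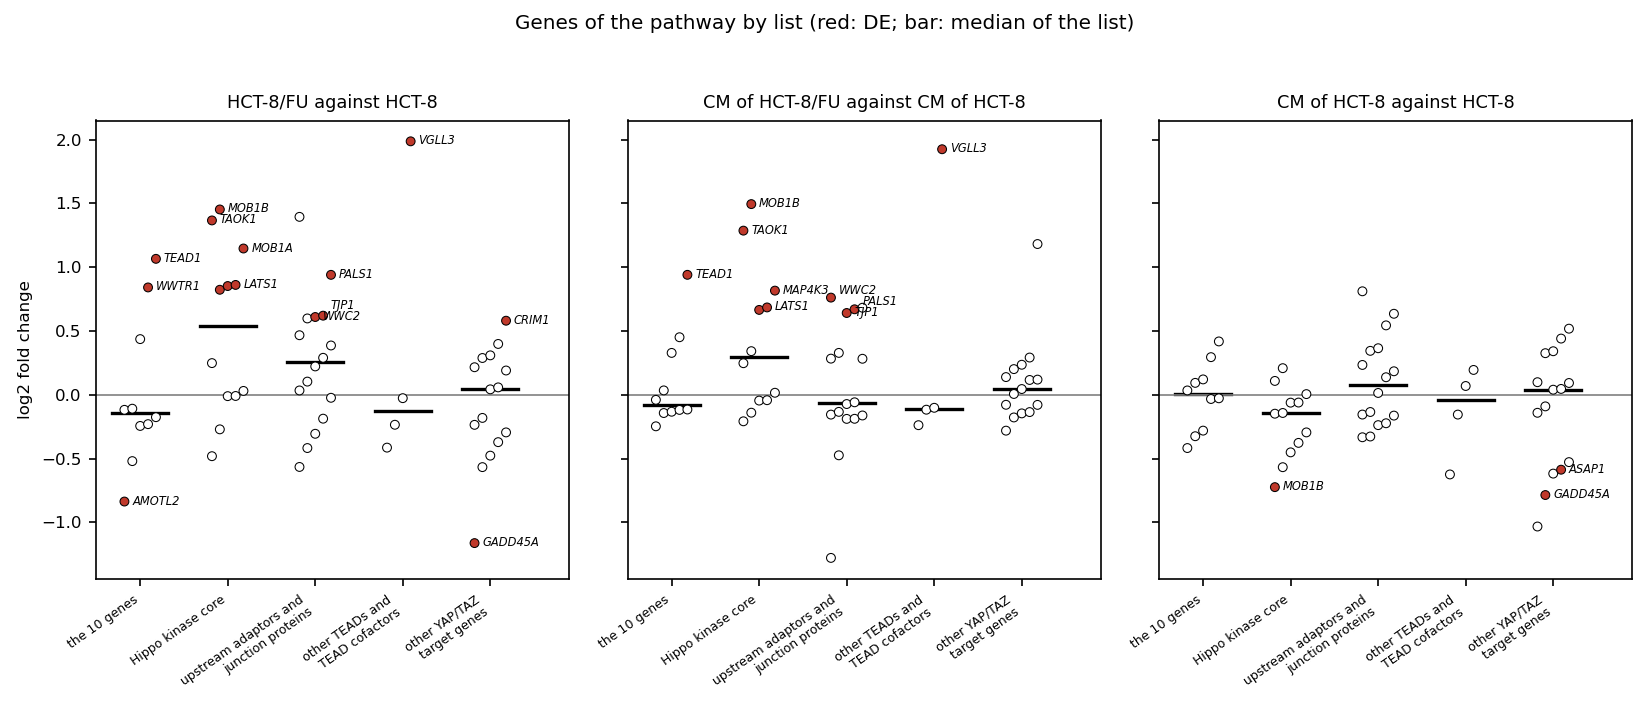
Log2 fold change (vertical axis) of the 10 members and of the 4 lists of Hippo pathway genes (horizontal axis) in 3 comparisons, with each point a gene, red points DE, and bars the median of the list. Without the correction for GC content and length, the kinase core has a median of 0.54 between the lines, and both sets of targets lie around 0.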

How the data were processed

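RNA-seq was made from 8 libraries in 4 groups of 2. The authors aligned reads to GRCh38 with HISAT2 and deposited raw counts per gene from HTSeq 0.11.2. Strand use in counting was not given in the sources used. Tables of the authors' own fold changes and p-values, made with DESeq2, were not used. The labels and the methods name different culture media. HTSeq's summary lines were left out of library sizes. Groups were taken from the labels. Counts were scaled by TMM and tested with edgeR 4.0.16 (quasi-likelihood, R 4.3.3) in 1 fit over the 4 groups, after its filter on low counts, with Benjamini-Hochberg adjustment over 20305 genes. Alternatives were DESeq2 1.42.0, other scaling and filters, a replicate block, a correction for GC content and length (GENCODE 44 gene models, spline of 5 degrees of freedom, 19857 genes) and leaving out each library. Depth ran from 5804124 to 34881349 counts per library, and limits of 3 counts cover counting error only. The scripts were tested on simulated data.

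The members and lists were chosen with earlier results of these data known. Named were all 10 members and, from each pathway list, up to 4 DE genes per comparison with the largest change and a mean of at least 1 CPM. Also named were the 3 genes most like YAP1 and CCN1. Promoter sequences are from RefSeq (GRCh38.p14). A further list of cell type markers is not reported here.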

Additional observations from a re-analysis of the deposited data

Results flagged for a closer look

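The change from HCT-8 to the resistant line differed from that between resistant-line CM and control CM for 2 members and 5 other pathway genes, by the test of the difference itself (edgeR, adjusted over all tested genes). Tested were 10 members and 47 other pathway genes, and 11.6% of all tested genes passed the same test. The share is near the background, so the number of genes is not a result about the pathway. The difference, as the first log2 fold change minus the second, was −0.72 (SE 0.11, adjusted p = 0.00048) for AMOTL2 and −0.48 (SE 0.12, adjusted p = 0.015) for AJUBA. GADD45A had the largest of the 7, −0.98 (SE 0.13, adjusted p = 0.00017), with −1.16 between the lines and −0.18 (adjusted p = 0.19) between the media. For PTPN14, a phosphatase that binds YAP, it was −0.49 (SE 0.11, adjusted p = 0.0067), with −0.37 (adjusted p = 0.0011) between the lines and 0.12 (adjusted p = 0.30) between the media. CRIM1 had 0.46 (SE 0.10, adjusted p = 0.0075). ASAP1 (−0.47, SE 0.15, adjusted p = 0.047) and WWC3 (−0.38, SE 0.11, adjusted p = 0.044) lay near the threshold, and neither passed with the correction for GC content and length (adjusted p = 0.053 and 0.18). These changes start from different groups, HCT-8 and control CM. Means in HCT-8 and control CM were 85.9 and 50.1 CPM for GADD45A, 321.9 and 222.7 for PTPN14, and 104.9 and 131.5 for CRIM1. For ASAP1 they were 35.9 and 23.8 CPM, for AMOTL2 200.4 and 159.8, for WWC3 166.1 and 141.3, and for AJUBA 121.5 and 118.5. The part of these starting levels in the differences was not tested. No group had enough libraries for a test of single outlying libraries.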

How the results depend on the processing

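With the FDR and no fold threshold, the members called were 5 between HCT-8/FU and HCT-8, 3 between the media and 5 between control CM and HCT-8. Leaving out 1 library gave 3, 1 and 0 to 1 DE members in these comparisons, the 1 being TEAD1 without control CM replicate 1. Members whose change differed were 1 to 4 when leaving out 1 library. Neighbouring groups that differed were 3 to 12, with 3 without resistant-line CM replicate 1, 5 without its replicate 2 or HCT-8 replicate 2, and 12 without control CM replicate 1. Pathway genes DE were 11 to 12, 5 to 10 and 3 to 8.

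With correction for GC content and length, neighbouring groups that differed were 1, and pathway genes DE were 6, 3 and 1. Same-numbered replicates did not pair, with correlations of their deviations between −0.12 and 0.13. With the replicate block, 3, 1 and 0 members were DE, 2 differed in their change, and 8 neighbouring groups differed. With both the correction and the replicate block, 1 member differed in its change, 1 neighbouring group differed, and 7, 3 and 1 pathway genes were DE. DESeq2 size factors and, chosen after seeing the data, a term for the libraries in which more than 15% of records were unaligned each gave 5 pathway genes DE between control CM and HCT-8.

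Signs changed in 27 values over alternatives other than leaving out a library, and none of these passed the FDR in either fit. AJUBA between the media was 0.00026 with DESeq2 size factors, 0.0499 with the groups compared only, 0.0426 with the GC correction, 0.0454 with it and the block, and 0.0463 with another TMM reference. LATS2 there was −0.00675 with the alignment term. Between control CM and HCT-8, YAP1 was 0.0550 and TEAD4 −0.136 with the GC correction, 0.0525 and −0.137 with it and the block, and WWTR1 was −0.0128 with size factors. For the difference of both changes, TEAD1 was −0.00284 with the alignment term. CCN1 was −0.0234 with size factors, −0.0466 without a filter, −0.0227 with DESeq2, −0.000690 with the block, −0.0422 with the GC correction and −0.0479 with both. CCN2 was −0.00973 with size factors, −0.0386 without a filter, −0.00153 with DESeq2, −0.00632 with the GC correction, −0.0137 with both and −0.0737 with the alignment term. ANKRD1 was −0.0266 with the GC correction, −0.0490 with both and −0.00595 with the alignment term. The cause was not tested.

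Leaving out 1 library, the log2 values between the media ran from −0.29 to 0.0141 for CCN2, −0.13 to 0.0796 for AJUBA and −0.0743 to 0.19 for LATS2. Between control CM and HCT-8 they ran from −0.17 to 0.11 for YAP1, −0.0655 to 0.13 for WWTR1, −0.0345 to 0.13 for TEAD4, −0.0957 to 0.37 for ANKRD1 and −0.15 to 0.0574 for AJUBA. For the difference they ran from −0.0439 to 0.23 for YAP1, −0.18 to 0.39 for TEAD1, −0.14 to 0.0748 for CCN1, −0.15 to 0.15 for CCN2 and −0.15 to 0.31 for ANKRD1.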
